A study of Mus musculus with 6 samples.

Results

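The 10 mouse genes described here encode mitotic kinesins, the microtubule motors of the dividing cell: Kif2c, Kif4, Kif11, Kif15, Kif18a, Kif18b, Kif20a, Kif20b, Kif22 and Kif23. They were chosen by gene family while the counts of these 6 libraries and the differences between their groups were already known, and were taken by Entrez ID from the 27179 genes of the deposited count table. All 10 were found there and passed the filter on low counts. RNA-seq libraries of polyadenylated RNA were made from CD8-negative dendritic cells sorted from the spleens of C57BL/6 mice, with 3 libraries made after CpG pretreatment and 3 without it. Unmethylated CpG DNA is sensed by Toll-like receptor 9 and sets off systemic inflammation. The cells were lysed after sorting without culture. The sources used here do not give the CpG sequence, dose, route, time before collection, age of the mice or number of mice per library. The libraries of each group carry the numbers 2, 3 and 4, and the design text calls them biological replicates. Values listed per library run in the order 2, 3, 4.

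Kinesins hydrolyse ATP and step along microtubules or shorten their ends. In mitosis some of them push the spindle poles apart, others hold and position chromosomes or regulate microtubule length, and a last set builds the central spindle and completes cytokinesis. Their genes are transcribed mainly in G2 and mitosis, so that their messages mark dividing cells. Conventional dendritic cells of the spleen keep dividing locally at a low rate. Promoters of such late cell cycle genes often carry a cell cycle homology region, a short element near the transcription start that is bound by the DREAM, B-MYB and FOXM1 complexes, together with CCAAT boxes bound by NF-Y.

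RefSeq promoter windows (GRCm38.p6, 250 bases before to 50 after the gene start) were held for 9 of the 10 genes, all but Kif20a. They were searched on both strands for TTTGAA or TTTAAA (cell cycle homology region). They were also searched for the NF-Y box CCAAT and for the E2F words TTTCGCGC and TTTGGCGC. In the 100 bases centred on the start, 7 of the 9 held TTTGAA on one strand or the other, against 5.72% of the 27025 genes with a window. Those 7 stretches are shown to let the position of the element be compared, and that of Kif18a is shown because it was the gene whose groups overlapped. Both Kif18a and Kif2c held no TTTGAA there. The Kif2c window lies wholly inside the annotated gene, so the 5′ end of that gene was not searched. Kif2c, whose stretch is not shown, had the highest log2 fold change of the 10 genes (0.71). A link between the element and the fold changes was not tested. Each line is written 5′ to 3′ on the gene's own strand, and capitals mark the matches that lie wholly inside it. A CCAAT box beginning 53 bases before the start in Kif18b and 54 in Kif22 is cut by the left edge and stands in lower case. TTTGAA appears as TTCAAA where it lies on the other strand. Likewise the CCAAT box appears there as ATTGG. The E2F word of Kif15 and Kif18a is likewise read from the other strand.
Kif11 (chr19:37376332-37376431, plus strand): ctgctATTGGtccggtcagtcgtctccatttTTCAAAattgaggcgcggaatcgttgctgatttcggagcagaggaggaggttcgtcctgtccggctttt
Kif15 (chr9:122951031-122951130, plus strand): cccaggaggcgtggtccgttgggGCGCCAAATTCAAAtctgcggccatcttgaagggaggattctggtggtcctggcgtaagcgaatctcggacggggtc
Kif4 (chrX:100626015-100626114, plus strand): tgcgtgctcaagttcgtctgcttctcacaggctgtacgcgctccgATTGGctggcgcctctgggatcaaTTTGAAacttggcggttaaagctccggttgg
Kif22 (chr7:127042371-127042470, minus strand): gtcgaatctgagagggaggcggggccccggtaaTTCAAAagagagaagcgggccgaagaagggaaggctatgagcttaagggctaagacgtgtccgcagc
Kif18b (chr11:102925075-102925174, minus strand): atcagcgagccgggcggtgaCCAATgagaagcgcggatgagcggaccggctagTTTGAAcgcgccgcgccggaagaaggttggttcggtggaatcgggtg
Kif23 (chr9:61946750-61946849, minus strand): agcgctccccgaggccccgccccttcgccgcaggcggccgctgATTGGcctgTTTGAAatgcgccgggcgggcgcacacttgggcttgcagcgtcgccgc
Kif20b (chr19:34922308-34922407, plus strand): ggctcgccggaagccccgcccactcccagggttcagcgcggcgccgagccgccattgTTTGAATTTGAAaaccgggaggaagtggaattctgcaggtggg
Kif18a (chr2:109280688-109280787, plus strand): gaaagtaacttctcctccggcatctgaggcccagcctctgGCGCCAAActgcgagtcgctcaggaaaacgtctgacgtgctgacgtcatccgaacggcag

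The first base of the element lay 19 bases before the start in Kif11 and Kif15 and 17 bases before it in Kif22. It was base 3 of the transcript in Kif23, base 4 in Kif18b and base 20 in Kif4. In Kif20b a pair of copies followed each other directly, beginning at bases 8 and 14, and in Kif15 the E2F word ended at the base before the element. Over the whole 300-base windows, 8 of 9 genes held TTTGAA or TTTAAA (30.6% of all genes), 5 of 9 held CCAAT (41.1%) and 2 of 9 held an E2F word (0.929%). The Kif2c window lies inside the annotated gene and held the first element only farther out, 234 and 103 bases before the start site of that window. The start sites are those of the promoter table, and for Kif2c, Kif18b, Kif20b, Kif22 and Kif23 they lie inside the gene span given below. The windows of Kif18b, Kif20b, Kif22 and Kif23 still reach past the 5′ end of that span. That of Kif2c (117178723 to 117179022, minus strand) does not, as its gene span ends at 117182624. In the central 100 bases TTTGAA stood in 1 of 6 other mitotic kinesin genes (Kifc1) and in 2 of 18 transport kinesin genes. It stood in 9 of 18 kinetochore and checkpoint genes, 6 of 10 central spindle and cytokinesis genes, 6 of 13 spindle assembly genes, 5 of 9 genes of mitotic entry and exit, 4 of 9 condensin and chromosome genes and 1 of 12 replication genes. For the chromosomal passenger genes the count was 1 of 2, and for the factors that act on these elements 1 of 11. Among the marker lists of other cells used below, it was 2 of 5 for B cells, 2 of 4 for plasma cells and 1 of 4 for monocytes. It was 1 of 7 for T cells, 1 of 13 for erythroid cells and 1 of 10 for granulocytes, and no other marker list held any. These matches are descriptions of letters in a window, and no binding was measured.

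The kinesin genes were higher in CpG-pretreated cells. Their summed level was 845, 673 and 705 CPM in the CpG-pretreated libraries, against 504, 476 and 473 CPM in the untreated ones. CPM are counts scaled to the library totals after TMM normalization. The means were 741 ± 91.8 CPM in CpG-pretreated and 484 ± 17.1 CPM in untreated cells (SD, n = 3 each), a ratio of 1.53. The log2 fold changes (CpG-pretreated over untreated) of the single genes ran from 0.42 for Kif18a to 0.71 for Kif2c, with a median of 0.64, where the median of all 11602 genes tested was -0.0054. In bulk libraries a larger share of dividing cells and more message per dividing cell cannot be told apart. The 10 genes were chosen with this same comparison known, so their differences are given as a description, with no test.

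The call rule was a Benjamini-Hochberg adjusted p below 0.05 in edgeR's quasi-likelihood test over all genes. Of the 10 kinesins, Kif4, Kif11, Kif20a and Kif20b passed that rule upward, beside 0.474% of all genes tested, and 0 passed downward, beside 0.5% (0.974% in either direction). With the replicate number as a block in the fit, the 9 other than Kif18a passed upward, beside 4.73% of all genes, and 0 passed downward, beside 3.78% (8.52% in either direction). In 9 of the 10 the groups did not overlap, with CpG-pretreated higher, beside 9.2% of all genes, and in 0 with CpG-pretreated lower, beside 9.47%. All 10 had a log2 fold change above 0, as did 48.9% of all genes, and 6.6% of all genes had one at least as high as Kif18a. Since the set was chosen with this contrast known, nothing is read from these shares. The count of 4 was 0 without CpG-pretreated library 2 or 3 or without untreated library 2, 3 or 4, and 5 without CpG-pretreated library 4. Over all genes the count of 113 called fell in the same fits to 0, 0, 34, 2 and 1, and it was 386 without CpG-pretreated library 4.

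**Figure D1:**
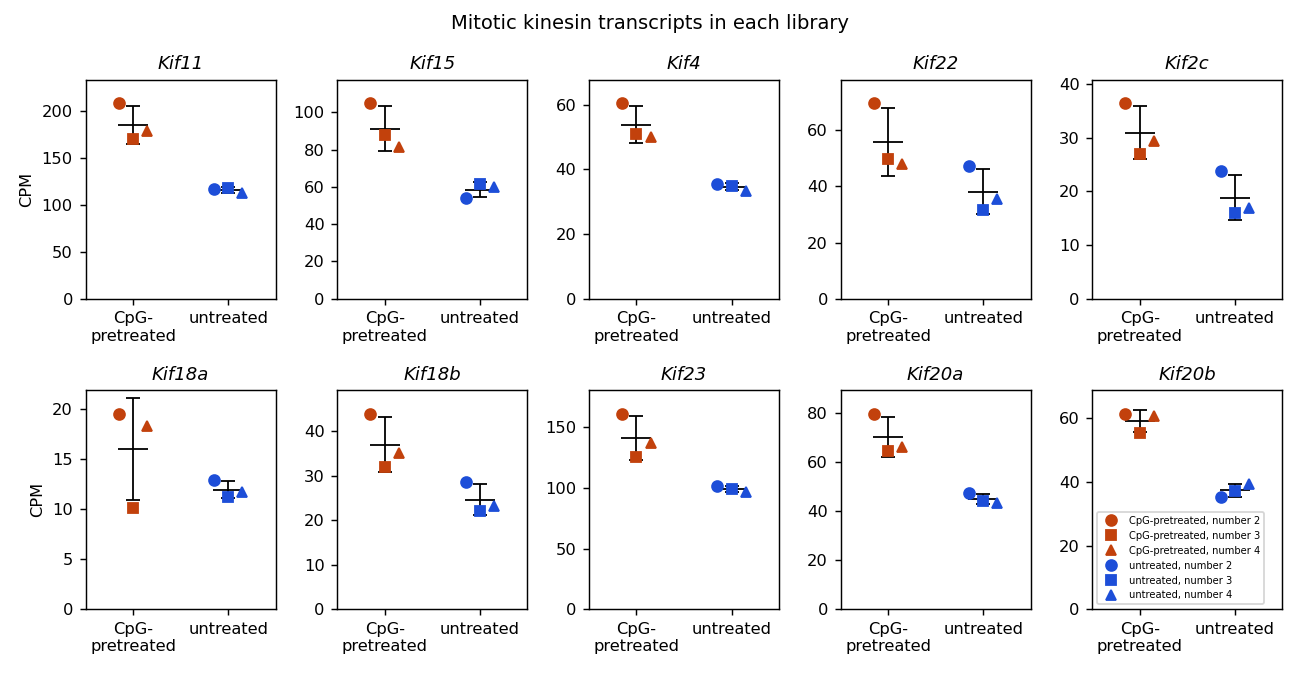
CPM of each of the 10 mitotic kinesin genes in every library, with CpG-pretreated libraries in orange and untreated ones in blue. Symbols give the replicate number and black bars the mean ± SD (n = 3 per group). In 9 genes all CpG-pretreated points lie above all untreated points, and in Kif18a CpG-pretreated library 3 (10.1 CPM) lies below the untreated libraries.

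Kif11 and Kif15 make the spindle bipolar: Kif11 (Eg5) crosslinks antiparallel microtubules and slides them apart, and Kif15 helps to keep the poles separated. Kif11 (Entrez 16551; GRCm38 chromosome 19, 37376382 to 37421863) had 209, 169.8 and 179 CPM in the CpG-pretreated libraries, against 117, 118 and 113 CPM in the untreated ones. The untreated values lay close together, and every CpG-pretreated value stood well above them. The log2 fold change was 0.68 (SE 0.11), or 1.60-fold. Kif15 (Entrez 209737; chromosome 9, 122951081 to 123018733) had 105, 87.9 and 81.1 CPM in the CpG-pretreated libraries, against 54.1, 61.5 and 60.1 CPM in the untreated ones. Its log2 fold change was 0.64 (SE 0.12). Within equal numbers the Kif15 difference was 0.95, 0.51 and 0.43 on the log2 scale for numbers 2, 3 and 4, the widest gap in the set for number 2, since untreated library 2 was its lowest and CpG-pretreated library 2 its highest.

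Kif4 and Kif22 are chromokinesins, which bind mitotic chromosome arms. Kif4 works with condensin in chromosome structure and with Prc1 at the central spindle, and Kif22 (Kid) pushes chromosome arms away from the poles. Kif4 (Entrez 16571; chromosome X, 100626065 to 100727271) had 60.5, 51.0 and 50.1 CPM in the CpG-pretreated libraries, against 35.5, 35.0 and 33.4 CPM in the untreated ones. The groups stood far apart, with a log2 fold change of 0.64 (SE 0.11). Kif22 (Entrez 110033; chromosome 7, 127027729 to 127042467) had 69.7, 49.8 and 47.9 CPM in the CpG-pretreated libraries, against 47.3, 31.8 and 35.5 CPM in the untreated ones. In Kif22 the groups only just failed to overlap, because untreated library 2 lay close to CpG-pretreated library 4. Its log2 fold change was 0.55 (SE 0.19). Exons of Kif4 share 832 bases with Pdzd11 on the other strand, and those of Kif22 share 96 bases with the antisense gene Gm31749 (GENCODE M21), and reads of such partners cannot be told apart without a stated strand setting.

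Kif2c, Kif18a and Kif18b act on microtubule ends. Kif2c (MCAK) removes tubulin and corrects wrong attachments at centromeres, Kif18a damps the swings of chromosomes at the metaphase plate, and Kif18b restrains astral microtubules together with Kif2c. Kif2c (Entrez 73804; chromosome 4, 117159633 to 117182624) had 36.4, 27.0 and 29.3 CPM in the CpG-pretreated libraries, against 23.7, 16.0 and 16.8 CPM in the untreated ones. Its log2 fold change of 0.71 (SE 0.18) was the highest of the 10, with a wide error. Library 2 stood well above libraries 3 and 4 in both groups, and with the replicate block the SE was 0.11. Kif18b (Entrez 70218; chromosome 11, 102905518 to 102925134) had 43.9, 32.0 and 35.1 CPM in the CpG-pretreated libraries, against 28.6, 22.0 and 23.2 CPM in the untreated ones. The order of the libraries was that seen in Kif2c, and the log2 fold change was 0.59 (SE 0.16).

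Kif18a (Entrez 228421; chromosome 2, 109280738 to 109341749) was the exception. It had 19.5, 10.1 and 18.3 CPM in the CpG-pretreated libraries, against 12.9, 11.3 and 11.7 CPM in the untreated ones. CpG-pretreated library 3 was the lowest of the 6 libraries, so that the groups overlapped, and within number 3 the difference was -0.15 on the log2 scale, the only value below 0 among the same-numbered differences of the 10 genes. The log2 fold change was 0.42 (SE 0.24). It was also the gene with the fewest reads, 80 counts in CpG-pretreated library 3, with an exact Poisson 95% interval of 8.04 to 12.6 CPM. That interval, which covers counting error only, takes in the values of untreated libraries 3 and 4 (11.3 and 11.7 CPM). The values of CpG-pretreated libraries 2 and 4 and of untreated library 2 (12.9 CPM) lie above it. The interval of untreated library 2 itself, 10.6 to 15.6 CPM, overlaps it. Those of CpG-pretreated libraries 2 (16.6 to 22.8 CPM) and 4 (15.4 to 21.5 CPM) do not. Exons of Kif18a share 11 bases with Mettl15 on the other strand.

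Kif23, Kif20a and Kif20b serve the central spindle and cytokinesis. Kif23 (MKLP1) forms centralspindlin with Racgap1, Kif20a (MKLP2) carries the chromosomal passenger complex to the central spindle, and Kif20b (MPP1) acts late in abscission. Kif23 (Entrez 71819; chromosome 9, 61917277 to 61946810) had 161, 125 and 137 CPM in the CpG-pretreated libraries, against 102, 99.0 and 97.0 CPM in the untreated ones. It had the second lowest log2 fold change of the 10, 0.51 (SE 0.11). Kif20a (Entrez 19348; chromosome 18, 34624624 to 34633277) had 79.6, 64.7 and 66.1 CPM in the CpG-pretreated libraries, against 47.3, 44.1 and 43.4 CPM in the untreated ones. Its groups stood apart in every library, with a log2 fold change of 0.64 (SE 0.11). Its exons share 1271 bases with Cdc23 on the other strand. Kif20b (Entrez 240641; chromosome 19, 34922335 to 34975750) had 61.3, 55.3 and 60.7 CPM in the CpG-pretreated libraries, against 35.4, 37.1 and 39.5 CPM in the untreated ones. Its CpG-pretreated libraries were the most even of the 10 relative to their mean, and the log2 fold change was 0.66 (SE 0.10).

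Compared per length, the message levels of the 10 genes spanned a wide range in both groups. Levels per kilobase use the deposited gene length. Kif23 was at 41.2 ± 5.32 CPM per kilobase in CpG-pretreated and 29.0 ± 0.717 in untreated cells (SD, n = 3 each, as for all levels here). Kif11 was at 38.5 ± 4.20 in CpG-pretreated and 24.1 ± 0.591 CPM per kilobase in untreated cells. Kif22 followed at 27.0 ± 5.84 in CpG-pretreated and 18.5 ± 3.93 CPM per kilobase in untreated cells. The middle of the order was taken by Kif15 (18.9 ± 2.54 in CpG-pretreated and 12.1 ± 0.820 CPM per kilobase in untreated cells) and Kif20a (18.0 ± 2.11 and 11.5 ± 0.534 in the same groups), whose untreated ranges overlapped, while the untreated ranges of Kif23, Kif11 and Kif22 were separate from one another and from these.

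Lower, Kif18b was at 11.1 ± 1.86 in CpG-pretreated and 7.38 ± 1.06 CPM per kilobase in untreated cells, Kif4 at 11.4 ± 1.22 and 7.35 ± 0.230, Kif20b at 10.6 ± 0.597 and 6.71 ± 0.367 and Kif2c at 10.9 ± 1.73 and 6.66 ± 1.49 in the same groups. These lay within one another's spread, apart from Kif4 and Kif20b, whose untreated ranges all but touched. Kif18a was lowest, at 4.74 ± 1.51 in CpG-pretreated and 3.55 ± 0.254 CPM per kilobase in untreated cells, and no untreated library of it reached the level of another kinesin. As a share of the summed level per kilobase, Kif11 made up 20.1% ± 0.490 in CpG-pretreated and 19.0% ± 0.968 in untreated cells, and Kif23 21.4% ± 0.532 and 22.9% ± 0.794 in the same groups. Kif18a made up 2.44% ± 0.638 in CpG-pretreated and 2.79% ± 0.0587 in untreated cells. With exon lengths from GENCODE M21, an alternative added after the data were seen, much of this order changed. In untreated cells Kif11 then stood at 15.5, Kif23 at 12.6 and Kif20a at 10.4 CPM per kilobase. Kif22 moved to 7.79 CPM per kilobase, below Kif20a, and Kif15 to 5.31, below Kif18b at 6.89, Kif4 at 6.28 and Kif20b at 5.37. Kif2c at 4.32 and Kif18a at 1.21 CPM per kilobase came last under both lengths. The places of Kif11, Kif23, Kif22, Kif20a and Kif15, and the gaps between their ranges, thus depend on the length used.

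**Figure D2:**
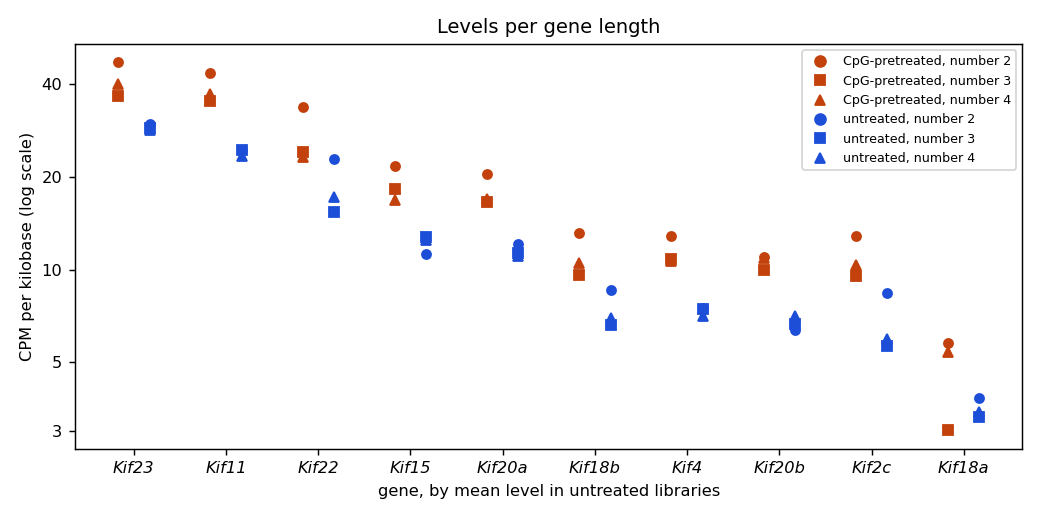
Level of each kinesin gene in CPM per kilobase of deposited gene length (log axis) in every library, CpG-pretreated in orange to the left and untreated in blue to the right of each gene. Genes run by their mean in untreated cells, from Kif23 (29.0) to Kif18a (3.55 CPM per kilobase).

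CpG-pretreated library 2 was the highest of the 6 libraries in all 10 genes. Within the CpG-pretreated group, library 3 was the lowest for 7 genes and library 4 for 3. Within equal numbers the median difference of the 10 genes was 0.70, 0.54 and 0.60 on the log2 scale for numbers 2, 3 and 4. Among all genes tested, 22.2% were higher in CpG-pretreated cells in all 3 numbers, as 9 of the kinesins were.

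Gene length moved with the spread between libraries. Both libraries numbered 2 had a trend over all 11602 genes toward lower relative levels of long genes, with Spearman correlations across genes between length and the offset from libraries 3 and 4 of -0.55 in the CpG-pretreated and -0.67 in the untreated group. The same measure over the 10 kinesins was -0.82 in the CpG-pretreated and -0.96 in the untreated group. These are correlations across genes, which share the libraries and are not independent replicates. The shortest of the 10 by deposited length, Kif22 (2064 bases), was 0.49 higher on the log2 scale in untreated library 2 than in the mean of untreated libraries 3 and 4. Kif2c (2832 bases) was 0.52 higher there, while Kif15 (4823 bases) and Kif20b (5563 bases) had offsets of -0.17 and -0.11. In CpG-pretreated library 2 the offset was above 0 in all 10 genes, from 0.082 for Kif20b to 0.51 for Kif22.

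The 5 longest of the 10 genes, at 3905 to 5563 bases, were Kif15 and the 4 that passed the call rule. With the length trend of each library taken out by a loess offset, chosen after the data were seen, Kif15 and Kif23 passed as well, which makes 6 of the 10, beside 1.65% of all genes called upward in that fit. The median log2 fold change of the 10 was then still 0.64. Without both libraries numbered 2, also chosen after the data were seen, Kif2c, Kif11 and Kif20a passed, beside 0.223% of all genes called upward in that fit, and the median was 0.57.

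**Figure D3:**
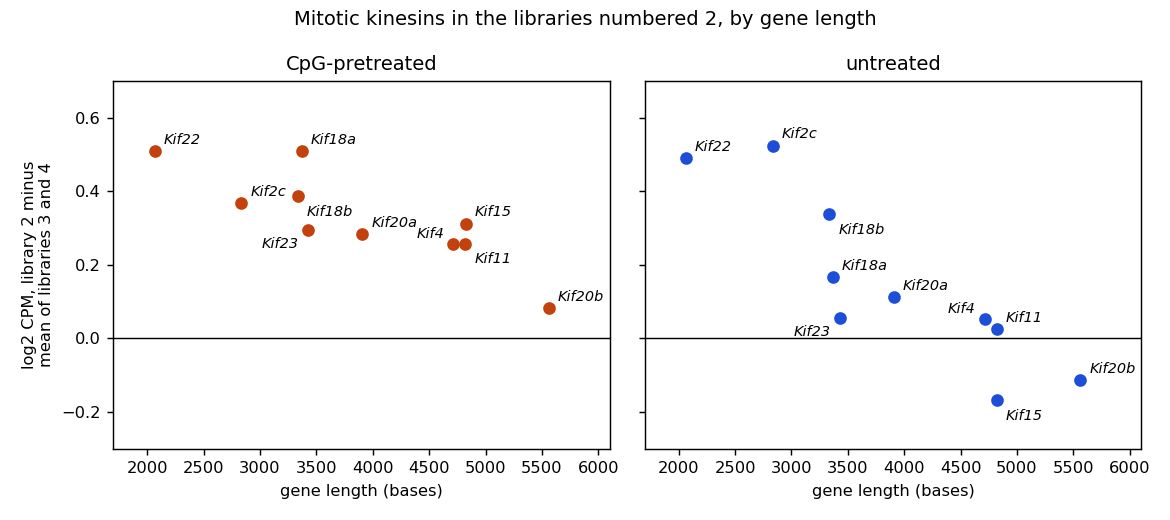
Each point is a kinesin gene, with its deposited length on the horizontal axis and, on the vertical axis, its log2 CPM in library 2 minus the mean of libraries 3 and 4 of the same group (CpG-pretreated left, untreated right). The short genes tend to lie higher than the long ones in both panels, and in the CpG-pretreated panel all 10 lie above 0.

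The other kinesins of mitosis or centrioles, grouped here as other mitotic kinesins, had log2 fold changes above 0 where tested. Few passed the rule. Of 6 such genes 5 were tested, and 1 rose, with a median log2 fold change of 0.52 and 4 called with the block. Kif14, a cytokinesis motor that binds Prc1 and citron kinase, rose to 36.9, 31.3 and 33.9 CPM in the CpG-pretreated libraries, against 17.7, 19.1 and 21.8 CPM in the untreated ones. Its log2 fold change was 0.80 (SE 0.13, edgeR adjusted p = 0.0402). Cenpe, the kinetochore motor that brings chromosomes to the plate, had 0.69 (SE 0.13, edgeR adjusted p = 0.0607, blocked adjusted p = 0.00381). Kifc1, a minus-end motor that gathers spindle poles, had 0.52 (adjusted p = 0.110, blocked adjusted p = 0.0144), Kif2a, a depolymerase at the poles, 0.31 (adjusted p = 0.285, blocked adjusted p = 0.0464) and Kif24, a centriolar kinesin, 0.40 (adjusted p = 0.511, blocked adjusted p = 0.162). Kif2b, a microtubule depolymerase, was at 0 counts in all 6 libraries. Counts of Kifc1 may be shared with its near copy Kifc5b, which had 35 to 78 counts per library.

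Of 25 other kinesin genes in the table, mostly motors of organelle and vesicle transport, 16 were tested. None passed the edgeR rule in either direction, and 1 fell with the block. Their median log2 fold change was 0.049. It turned to -0.028 without CpG-pretreated library 4, to -0.071 without untreated library 2 and to -0.0073 without both libraries numbered 2. Kif21b had 0.0080 (SE 0.22, adjusted p = 0.993) and Kif5b, the conventional kinesin heavy chain, 0.22 (SE 0.19, adjusted p = 0.753). Kif17 had -0.63 (SE 0.15, adjusted p = 0.0970) and fell with the block (adjusted p = 0.0108). Of the 4 tested cargo-binding subunits none passed the rule, with or without the block, and Klc1 and Klc2 had log2 fold changes of 0.16 (adjusted p = 0.547) and -0.21 (adjusted p = 0.446). The kinesin lists were not tested against one another.

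**Figure D4:**
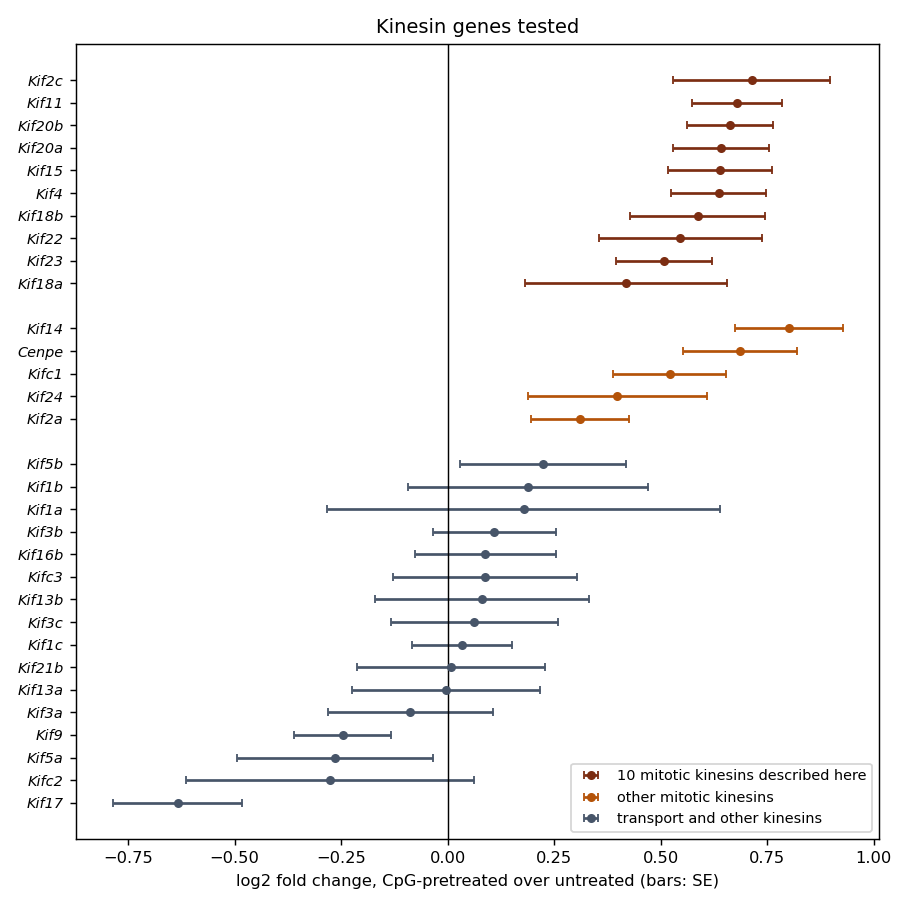
Log2 fold change of CpG-pretreated over untreated with its SE for every kinesin gene tested, in 3 blocks: the 10 mitotic kinesins described here, the other mitotic kinesins and the remaining kinesins. The first block runs from 0.42 to 0.71, and the last is spread on both sides of 0, with Kif17 lowest at -0.63.

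Most genes that work with these motors had log2 fold changes above 0, few of them past the rule without the block. In the spindle assembly list 1 of 17 rose and none fell (11 with the block), with a median log2 fold change of 0.50. Ckap2l, a spindle-associated protein gene, was at 63.4 ± 9.47 CPM in CpG-pretreated and 38.9 ± 2.32 CPM in untreated cells (0.70, SE 0.13, adjusted p = 0.0491). The most abundant members, the pole organiser Numa1 and the microtubule polymerase Ckap5, had 0.097 (adjusted p = 0.895) and 0.26 (adjusted p = 0.582). In the central spindle and cytokinesis list 0 of 13 passed (9 rose with the block), with a median of 0.55. Its abundant members Sept9 and Rhoa, which serve many processes outside division, had 0.30 (adjusted p = 0.184) and -0.036 (adjusted p = 0.946). All 4 genes of the chromosomal passenger complex, which Kif20a carries, rose with the block and 0 without it (median 0.52). Incenp, its scaffold, had 0.48 (adjusted p = 0.0848, blocked adjusted p = 0.00161) and Cdca8, which encodes borealin, 0.57 (adjusted p = 0.180, blocked adjusted p = 0.000732).

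In the kinetochore and checkpoint list 1 of 21 rose and none fell (13 with the block), with a median of 0.53. Cenpf, a kinetochore protein of late G2, was at 63.5 ± 7.31 CPM in CpG-pretreated and 37.6 ± 4.57 CPM in untreated cells (0.76, SE 0.13, adjusted p = 0.0444). Bub1b, a checkpoint kinase-like protein, had 0.58 (adjusted p = 0.0537, blocked adjusted p = 0.000423), and Bub3 0.10 (adjusted p = 0.880). In the condensin and chromosome list 1 of 10 rose (8 with the block), with a median of 0.53. Top2a, which untangles sister chromatids, rose by 0.71 (SE 0.11, adjusted p = 0.0398), and the proliferation marker Mki67 had 0.74 (SE 0.17, adjusted p = 0.0900, blocked adjusted p = 0.0146).

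In the list of mitotic entry and exit 0 of 13 passed (9 rose with the block), with a median of 0.46. Espl1 (separase) had 0.35 (adjusted p = 0.130, blocked adjusted p = 0.0122) and Ccna2 (cyclin A2) 0.69 (adjusted p = 0.0889, blocked adjusted p = 0.000166). Among the 14 genes of the factors that act on the promoter elements above, 0 passed (3 rose with the block), with a median of 0.18. The abundant members Nfya and Rbbp4 had 0.19 (adjusted p = 0.664) and 0.034 (adjusted p = 0.966). Foxm1 was the highest of the 14 at 0.61 (SE 0.12, adjusted p = 0.0609, blocked adjusted p = 0.000363), and the lowest value was -0.12. Replication genes had a median of 0.39, with 0 of 16 past the rule and 13 higher with the block. Mcm6 and Mcm5, subunits of the replicative helicase, had 0.41 (adjusted p = 0.176, blocked adjusted p = 0.0180) and 0.40 (adjusted p = 0.160, blocked adjusted p = 0.00552).

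The genes whose pattern over the 6 libraries lay closest to the mean of the 10 kinesins were Parpbp, Bub1b, Foxm1, Anln, Ska3, Iqgap3, Racgap1 and Tpx2. Likeness was the root mean square difference between centred log2 CPM values, ranked over the 8977 other genes whose average log2 CPM reached 3. It was 0.030 for Parpbp, which encodes a partner of PARP1 in DNA repair, 0.035 for Bub1b and 0.037 for Foxm1, a transcription factor of late cell cycle genes. It was 0.040 for Anln (anillin, a scaffold of the contractile ring), 0.044 for Ska3 (a kinetochore subunit), 0.052 for Iqgap3 (a scaffold protein), 0.064 for Racgap1 (the partner of Kif23) and 0.069 for Tpx2 (an activator of Aurora A). Among the kinesins, the difference from the mean of the other 9 ran from 0.046 for Kif20a to 0.27 for Kif18a.

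Markers of other cells were set beside these values. The dendritic cell genes Zbtb46 (159 ± 19.9 CPM in CpG-pretreated and 161 ± 15.3 CPM in untreated cells) and Flt3 (578 ± 71.3 and 563 ± 36.2 CPM in the same groups) were present in every library, and Cd8a stayed between 1.23 and 4.69 CPM. The 8 cDC1 markers, Cd8a among them, summed to 231, 257 and 170 CPM in the CpG-pretreated libraries. In the untreated ones they summed to 202, 189 and 164 CPM. Their median log2 fold change was 0.66, with 6 of the 8 above 0. Erythroid markers were also higher in CpG-pretreated cells. Of the 19 listed, 16 were in the table and 12 were tested, of which 6 rose (8 with the block) and none fell. Their median log2 fold change was 3.97, and Hba-a1 was at 0 in all libraries. They summed to 1418, 1293 and 299 CPM in the CpG-pretreated libraries, against 33.3, 127 and 34.2 CPM in the untreated ones. Within the CpG-pretreated group, library 2 had the largest kinesin sum and the largest erythroid sum, while libraries 3 and 4 stood in opposite order in the kinesin sum (673 and 705 CPM) and the erythroid sum. In the untreated group the erythroid sum was highest in library 3 and the kinesin sum in library 2 (504 CPM). Granulocyte markers, with 0 of 7 tested called (1 rose with the block), summed to 105, 62.0 and 54.0 CPM in the CpG-pretreated libraries, against 77.8, 33.4 and 3.44 CPM in the untreated ones. Red pulp macrophage markers moved the other way, with 3 of 12 lower (9 with the block), 0 higher and sums of 355, 427 and 483 CPM in the CpG-pretreated libraries, against 514, 671 and 680 CPM in the untreated ones.

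No marker of B cells (5 tested), plasma cells (3), T cells (2), NK cells (1), monocytes (6), plasmacytoid dendritic cells (5), cDC1 (8), the common cDC core (7) or progenitors (2) passed the rule, and of 7 cDC2 markers 1 fell. With the block 1 B cell and 1 progenitor marker and 3 cDC2 markers fell, and 4 cDC1 markers rose. Megakaryocyte markers were too low to test, with sums of 0.738 to 3.42 CPM. The part of dividing cells of these other types in the kinesin values was not tested.

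**Figure D5:**
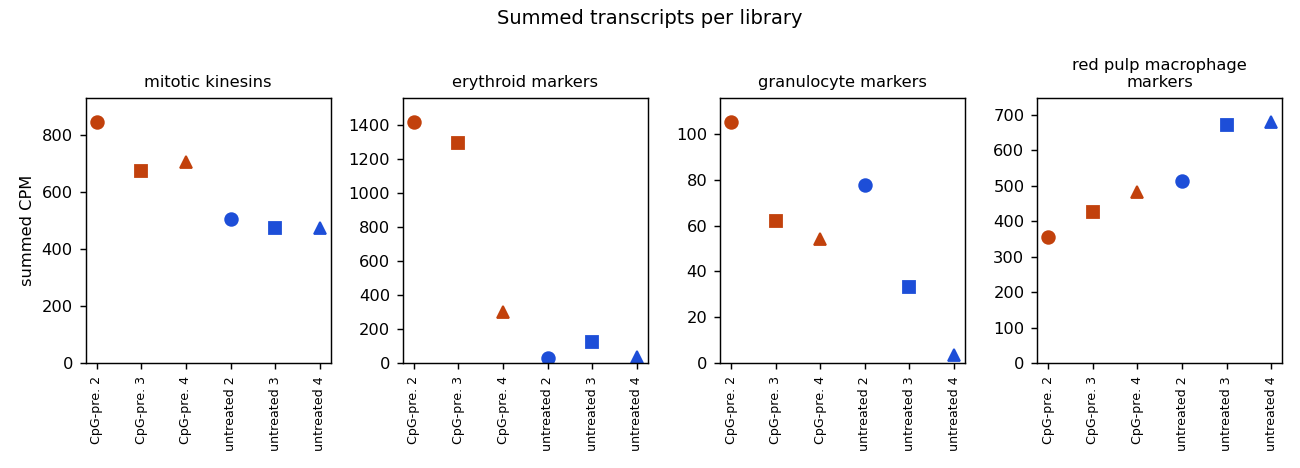
Summed CPM per library of the 10 kinesins and of the erythroid, granulocyte and red pulp macrophage markers in the table, CpG-pretreated in orange and untreated in blue. The kinesin sum is 845, 673 and 705 CPM in CpG-pretreated libraries 2, 3 and 4, whose erythroid sums are 1418, 1293 and 299 CPM.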

How the data were processed

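The deposited values are whole-number counts per Entrez gene ID with a gene length. The submitters' processing notes name CASAVA, featureCounts and the mm10 build. The aligner, strand setting and handling of multiply matching reads were not given in the sources used here. Total counts were 7855500 to 8228140 per library, so that 1 count was worth 0.123 to 0.127 CPM. No pair of replicates agreed within sampling noise (chi-square per degree of freedom of 3.17 to 19.7). Symbols and positions came from RefSeq GRCm38.p6, with 25275 of 27179 IDs matched.

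The tests used edgeR 4.0.16 under R 4.3.3. Its filterByExpr (minimum count 10, minimum total 15) kept 11602 genes, followed by TMM scaling, robust dispersions, the two-sided quasi-likelihood F test and Benjamini-Hochberg adjustment over all genes tested. Adjusted p-values are from that fit unless the block is named. Each standard error is the absolute log2 fold change divided by the square root of F. Log2 CPM used a prior count of 2. Alternatives used DESeq2 1.42.0, limma 3.58.1, other scalings, filters and left-out libraries. Both groups carry the numbers 2, 3 and 4. Deviations from group means correlated at 0.48, 0.25 and 0.31 between same-numbered libraries, all over the 0.1 required, so the numbers were taken as pairs on the data alone, and blocked values stand where the block alters a call. Since no label says whether each library is 1 mouse or a pool, p-values reflect only the variation among these libraries. Non-member genes were named by rule: every other mitotic kinesin, the most abundant pair of each other pathway list with any called gene, and the 8 genes most alike. Non-members beyond that rule, Kif17, Zbtb46, Flt3 and Cd8a were named after their values were seen. The kinesins and all lists were chosen with earlier results of these data known.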

Additional observations from a re-analysis of the deposited data

How the results depend on the processing

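All 160 log2 fold changes of the 10 kinesins under 16 alternatives lay above 0, from 0.25 to 0.93. Of these, 148 lay within 1 SD of the reported value, the SD being that of the gene's same-numbered differences. That SD ran from 0.041 for Kif18b to 0.44 for Kif18a, where it exceeded the log2 fold change of 0.42. The alternatives refit the same libraries and are not independent. The median of 0.64 ranged from 0.57 to 0.65 over the settings that kept all libraries or left out both numbered 2, and from 0.54 (without CpG-pretreated library 2) to 0.69 with 1 library left out. The count of kinesins past the rule, 4 as reported, was 9 with the replicate block, 7 with the DESeq2 Wald test and 2 with upper quartile scaling, with library size only and with limma-voom. Of all 11602 genes tested, those called upward in the same fits numbered 549, 260, 46, 47 and 14, against 55 as reported. With 1 library left out the kinesin count ran from 0 to 5, beside 0 to 275 called upward over all genes. Over all genes, 113 calls became 988 with the replicate block, 189 without a filter, 428 by DESeq2, 41 by limma-voom, 67 without both libraries numbered 2 and 368 with the gene length offset, and 0 to 386 with 1 library left out. The 2 fits with 0 calls, without CpG-pretreated library 2 or 3, left 1065 and 1107 genes below an unadjusted 0.05 in edgeR; DESeq2 and limma were not applied there. The transport kinesin median of 0.049 ran from -0.071 to 0.13 with 1 library left out. It was 0.13 without CpG-pretreated library 2, -0.028 without CpG-pretreated library 4, -0.071 without untreated library 2 and -0.0073 without both libraries numbered 2. Fits with fewer samples have fewer degrees of freedom, and other causes were not tested. RefSeq exon lengths were not used, and GENCODE exon lengths took their place. Depth limits Kif18a most, at 80 to 159 counts per library.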
